A study of Mus musculus with 6 samples.

Results

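The SLAM family of surface receptors, with the related receptor CD2, the shared ligand CD48 and the adaptor SAP (gene Sh2d1a), was read on arrays of mouse cytotoxic T cells. The 9 genes were Slamf1, Slamf6, Slamf7, Cd244, Ly9, Cd48, Cd84, Sh2d1a and Cd2, chosen with earlier results of these data known. Their probe sets were taken by annotation, as all those assigned to exactly 1 of these gene symbols. This gave 15 of the 45101 probe sets on the array, with Cd244 listed there under its newer symbol Cd244a. All 6 samples were P14 cytotoxic T cells, which carry a transgenic T cell receptor for the gp33 peptide of lymphocytic choriomeningitis virus. They came from disaggregated spleens of C57Bl/6 strain, had 24 h of activation by it and were then exposed to a retrovirus encoding a GFP fusion of an HDAC7 mutant that cannot be phosphorylated. HDAC7, a histone deacetylase of class IIa, represses transcription while it is nuclear. The 3 GFP positive samples carry the mutant. The 3 GFP negative samples are cells without GFP sorted from the infected cells and labelled as the control. An empty-vector group was not analysed here, and the sources used here do not give the age or sex of the mice, the promoter that drives the construct or whether animals were pooled. The replicates are called biological, but separate animals or cultures are not stated. The p-values therefore reflect the spread between these 6 samples, which may be technical.

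SLAM receptors are immunoglobulin-superfamily molecules on haematopoietic cells. Most bind their own kind on a neighbouring cell, whereas CD244 binds CD48, which in mice is also the ligand of CD2. CD48 is held in the membrane by a lipid anchor, and the other SLAM receptors among the 9 genes carry tyrosine motifs in their tails that recruit SAP or its relatives. SAP brings in the kinase FYN, and without it the same motifs can recruit inhibitory phosphatases. In cytotoxic T cells these receptors tune adhesion to target cells and killing.

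The array values are log2 signals, and the comparison is GFP positive minus GFP negative. The Hdac7 probe set that was higher in GFP positive cells went from 4.83 ± 0.03 (SD, n = 3) to 8.15 ± 0.05 (n = 3), while a second fell by 0.55. Median signal was 1.62 to 1.72 per array, and control probe sets without a mouse target averaged 0.60 to 0.72, which marks background. The T cell markers Cd3d, Cd3e, Cd3g, Cd8a, Cd8b1 and Thy1 read between 6.72 and 11.38 on every array, and 4 of the 6 rose in GFP positive cells (Cd3e, Cd3g, Cd8a and Cd8b1, by 0.55 to 1.24). Markers of B cells, myeloid cells, dendritic cells, NK cells, CD4 T cells and red cells had 18 genes with a probe set, none above 4.63 on any array. Of these, 9 were bright enough to be tested, 0 were higher and 1 lower by limma's adjusted p (at an unadjusted p under 0.05, 0 were higher and 3 lower). The gene that fell was Flt3, from 2.54 to 2.07. In bulk samples, fewer cells of a type and less RNA per cell cannot be told apart. The array labelled GFP negative 1 had the highest 18S ribosomal RNA 5' control signal, 11.02 against 8.98 to 10.20 on the others, and GFP positive 3 the highest spike-in controls, 8.19 against 7.74 to 7.90.

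CD2 and its ligand CD48 fell in GFP positive cells, while SLAMF1, CD84 and SAP rose on their brightest probe sets. Cd2 was 2.04-fold lower and Cd48 1.34-fold lower. Slamf1 was 1.64-fold higher, Cd84 1.57-fold higher and Sh2d1a 2.04-fold higher. The size for Sh2d1a leans on 1 low control, as its log2 change was 1.03 with all samples and 0.60 without GFP negative 1. The calls of Sh2d1a and Cd48 were lost in several alternative runs, given below. Slamf6, Slamf7 and Ly9 did not pass the test, and both Cd244 probe sets lay near background.

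Of the 15 probe sets, 12 had a mean above the dim filter, a log2 signal of 1.27. Among these 12, 5 were higher, 2 lower and 5 did not pass at an adjusted p of 0.05 from limma, adjusted over the 27022 probe sets tested. Of all 27022, 32.5% passed, 19.3% higher and 13.2% lower, so many genes on the array moved. The share of calls that were higher was 59.4% as deposited and 39.3% when each array was centred on its median, a setting that shifts the median change of all probe sets from -0.02 to -0.14. The median change of the 12, which include 3 probe sets each of Slamf1 and Slamf6, was 0.25. It was 0.06 over the brightest probe sets of the 8 genes past the filter, 0.13 after median centring, 0.08 with 32 added in linear units, 0.14 without GFP positive 3 and 0.10 without both GFP negative 1 and GFP positive 3. The groups did not overlap in 8 of the 12, against 48.2% of all probe sets. With GFP negative 1 and GFP positive 3 both left out, which leaves 2 samples a group, limma still called Cd2 (-1.09), the brightest Slamf1 probe set (0.66) and Sh2d1a (0.56). Cd48 (-0.32, limma adjusted p = 0.13), Cd84 (0.63, limma adjusted p = 0.081) and the other Slamf1 probe sets then did not pass.

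**Figure D1:**
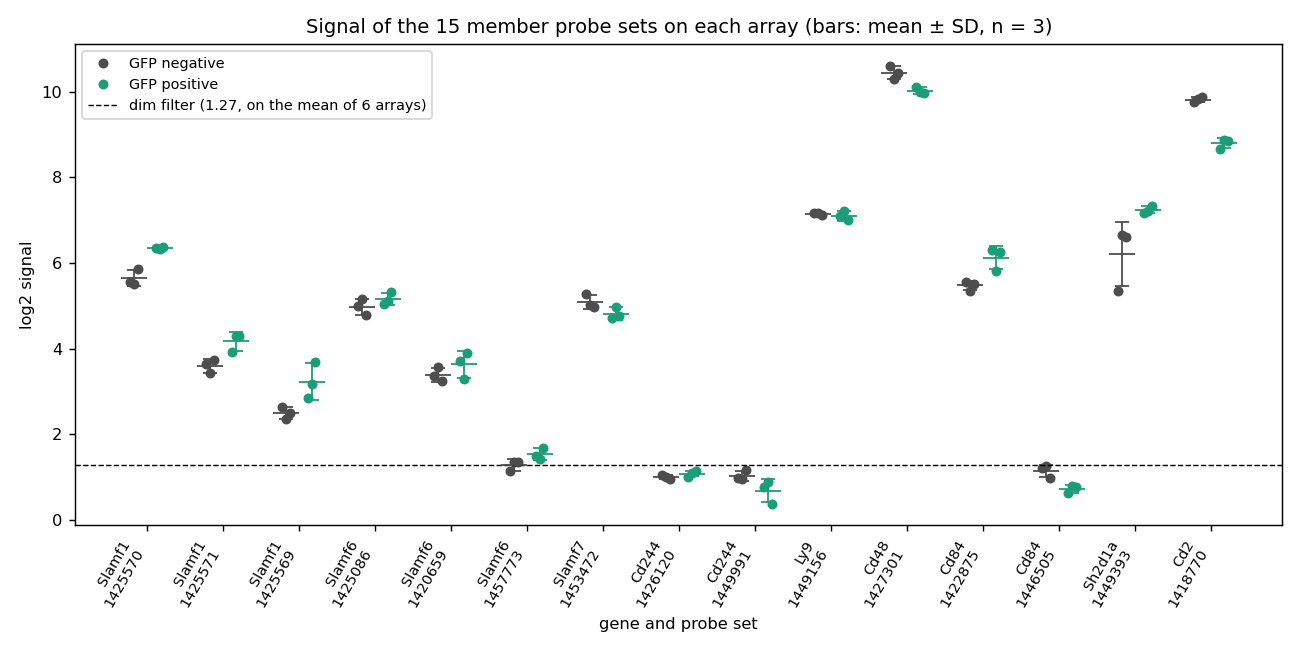
Log2 signal (vertical axis) of the 15 probe sets (horizontal axis) on the 3 GFP negative and 3 GFP positive arrays, with points for arrays and bars for mean ± SD. The Cd2 and Cd48 groups separate downwards and the Slamf1, Cd84 and Sh2d1a groups upwards, with GFP negative 1 lowest for Sh2d1a at 5.35, while 3 probe sets (Cd244 and the second of Cd84) lie under the dashed filter line at 1.27.

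CD2 is an adhesion receptor that strengthens contact between a T cell and its partner and lowers the threshold for activation. Its probe set (1418770_at) read 9.75, 9.83 and 9.88 in GFP negative samples 1 to 3 and 8.66, 8.87 and 8.85 in GFP positive samples 1 to 3. Every GFP positive sample lay well under every GFP negative one. The means were 9.82 ± 0.06 and 8.79 ± 0.12 (SD, n = 3 each), a change of -1.03 ± 0.09 (SE) with a limma adjusted p of 3.4e-04. Changes of at least 2-fold that passed were found for 4.67% of all probe sets tested. The fall passed in every alternative run, with changes from -1.14 to -0.96.

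CD48, the ligand of CD2 and CD244, is carried by T cells themselves as well as by their targets. Its probe set (1427301_at) read 10.61, 10.29 and 10.45 in GFP negative samples and 10.12, 9.99 and 9.97 in GFP positive samples. The groups did not overlap, although the lowest control and the highest GFP positive sample lay close together. The change was -0.42 ± 0.10 (SE), from 10.45 ± 0.16 to 10.03 ± 0.08 (SD, n = 3), with a limma adjusted p of 0.018. This call was lost when GFP negative 1, GFP negative 3, GFP positive 2 or GFP positive 3 was left out, with changes of -0.34, -0.42, -0.41 and -0.40 and limma adjusted p from 0.053 to 0.060.

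SLAMF1 (CD150) binds itself across a contact and signals through SAP. Its brightest probe set (1425570_at) read 5.56, 5.51 and 5.85 in GFP negative and 6.36, 6.32 and 6.37 in GFP positive samples. All 3 GFP positive samples lay above all controls and close to each other. The rise was 0.71 ± 0.11 (SE; limma adjusted p = 0.0024), with means of 5.64 ± 0.19 and 6.35 ± 0.02 (SD, n = 3), and it passed in every alternative run.

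The other Slamf1 probe sets moved the same way. The second (1425571_at) went from 3.64, 3.42 and 3.73 to 3.92, 4.29 and 4.30, a rise of 0.57 ± 0.14 (SE; limma adjusted p = 0.015). The third (1425569_a_at) went from 2.63, 2.37 and 2.49 to 2.84, 3.16 and 3.69, a rise of 0.73 ± 0.20 (SE; limma adjusted p = 0.027). In both, every GFP positive sample exceeded every control, and the GFP positive samples of the third were spread widely. The call of the second was lost without GFP negative 2 (0.48) or GFP positive 2 (0.51), and that of the third without GFP negative 1, 2 or 3 (0.80, 0.67 and 0.73) or GFP positive 2 (0.77). These signals are low, and with 32 added in linear units before taking logs the 3 rises were 0.47, 0.18 and 0.14, the last not passing (limma adjusted p = 0.096).

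CD84 is another self-binding receptor that recruits SAP. Its main probe set (1422875_at) read 5.57, 5.35 and 5.51 in GFP negative and 6.30, 5.82 and 6.26 in GFP positive samples. The groups did not overlap, with GFP positive 2 nearest to the controls. The rise was 0.65 ± 0.14 (SE; limma adjusted p = 0.011), from 5.48 ± 0.11 to 6.12 ± 0.27 (SD, n = 3), and 0.42 with 32 added in linear units. A second Cd84 probe set (1446505_at) was under the filter and went the opposite way near background level, from 1.21, 1.25 and 0.99 to 0.62, 0.78 and 0.77. It was not tested, and without the filter its change of -0.42 had a limma adjusted p of 0.021, so the direction given for Cd84 is that of its main probe set.

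SAP, encoded by Sh2d1a on the X chromosome, is the small adaptor that links SLAM receptors to FYN. Its probe set (1449393_at) read 5.35, 6.67 and 6.62 in GFP negative and 7.17, 7.22 and 7.33 in GFP positive samples. All GFP positive samples lay above all controls, and GFP negative 1 lay far below the other controls. The rise was 1.03 ± 0.32 (SE), from 6.21 ± 0.74 to 7.24 ± 0.08 (SD, n = 3), with a limma adjusted p of 0.042. Without GFP negative 1 the rise was 0.60, with a limma adjusted p of 0.0087. GFP negative 1 is also the array with the highest 18S control signal, whose part in this result was not tested. The call was lost without GFP positive 1, 2 or 3 (1.07, 1.04 and 0.99), with 32 added in linear units (0.76, limma adjusted p = 0.072), without the dim filter (limma adjusted p = 0.052) and with a robust variance prior that follows intensity (limma adjusted p = 0.10).

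**Figure D2:**
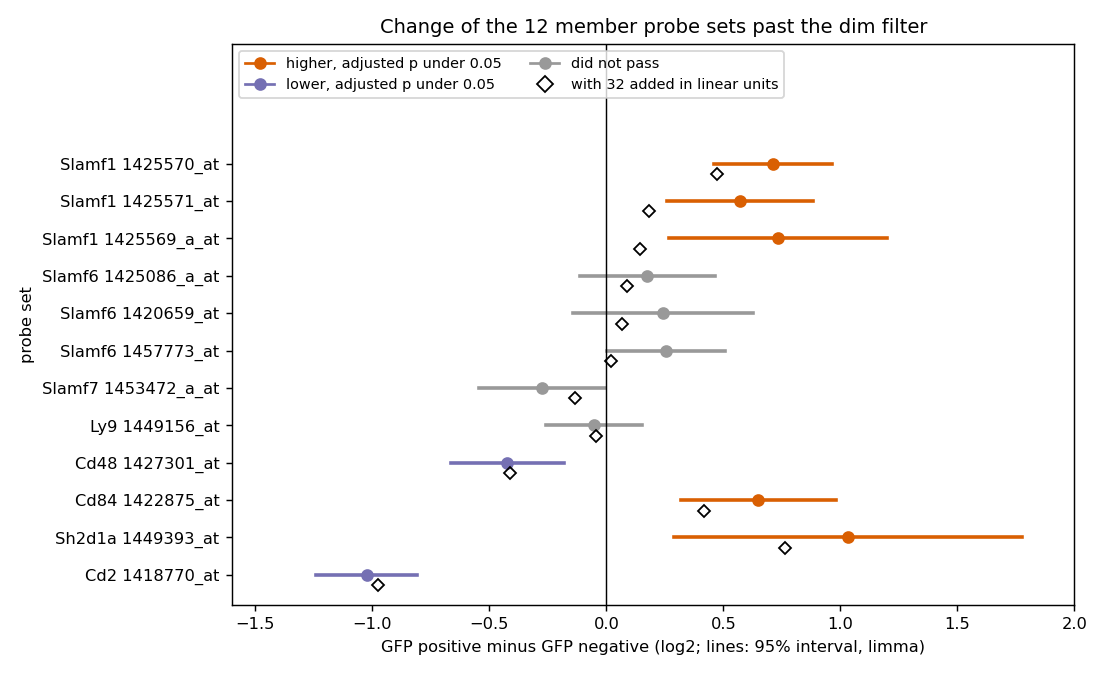
Change of the 12 probe sets past the dim filter (rows), as log2 GFP positive minus GFP negative with the 95% interval from limma (lines), and the same change with 32 added in linear units (diamonds). Cd2 at -1.03 and Cd48 at -0.42 hardly move with the added constant, whereas the dimmer Slamf1 probe sets shrink from 0.57 and 0.73 to 0.18 and 0.14.

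Slamf6, Slamf7 and Ly9 also encode self-binding receptors with tails that recruit SAP or its relatives. Slamf6 (Ly108) had 3 probe sets, and none passed. The brightest (1425086_a_at) read 4.98, 5.16 and 4.78 in GFP negative and 5.04, 5.10 and 5.31 in GFP positive samples, with overlapping groups and a change of 0.18 (95% interval -0.11 to 0.46; limma adjusted p = 0.31). The second (1420659_at) changed by 0.24 (-0.14 to 0.63), and the third (1457773_at), at 1.41 just above the filter, by 0.26 (0.0037 to 0.51; limma adjusted p = 0.11). All 3 point estimates were above 0.

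Slamf7 (CRACC), which in natural killer cells signals through the SAP relative EAT-2, read 5.27, 5.02 and 4.98 in GFP negative and 4.71, 4.98 and 4.76 in GFP positive samples (1453472_a_at). GFP positive 2 reached the lowest control, and the change of -0.28 (95% interval -0.55 to -0.0062) had a limma adjusted p of 0.11. It passed after quantile normalization (-0.44, limma adjusted p = 0.025) and median centring (-0.39, limma adjusted p = 0.032).

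Ly9 (CD229) had the smallest change of the 12. It read 7.17, 7.17 and 7.13 in GFP negative and 7.09, 7.22 and 7.00 in GFP positive samples (1449156_at). The groups overlapped, and the 95% interval of the change, -0.05, ran from -0.26 to 0.15 (limma adjusted p = 0.66).

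Cd244 (2B4), the activating or inhibitory receptor for CD48, was near background and under the dim filter on both probe sets. The first (1426120_a_at) read 0.95 to 1.05 in GFP negative and 1.01 to 1.14 in GFP positive samples, and the second (1449991_at) 0.95 to 1.17 and 0.38 to 0.89. Neither entered the test, and without the filter their limma adjusted p values were 0.57 and 0.12. A change in Cd244 was therefore not detectable on these arrays.

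In the mouse reference GRCm38.p6, 7 of the 9 genes lie in 1 cluster on chromosome 1 within 390.2 kb, in the order Cd244, Ly9, Slamf7, Cd48, Slamf1, Cd84 and Slamf6. Cd2 is on chromosome 3. On their brightest probe sets, Ly9, Slamf7 and Cd48 changed by -0.05, -0.28 and -0.42, and Slamf1, Cd84 and Slamf6, which follow them, by 0.71, 0.65 and 0.18. Of these 6, Cd48, Slamf1 and Cd84 passed. The neighbours were the 5 genes listed as protein-coding on each side of the cluster and Tma7-ps, named as a pseudogene, between Cd48 and Slamf1, 11 in all. Of these, 6 were tested, 2 rose, 1 fell and 3 did not pass, with changes from -0.39 to 0.36. These calls were adjusted over the 27022 probe sets, of which 19.3% were higher and 13.2% lower. Over all 13194 genes read on 1 probe set each and adjusted over those, 24.6% were higher and 17.5% lower. The neighbours were not counted under that second adjustment. Whether position in the cluster plays a part was not tested.

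**Figure D3:**
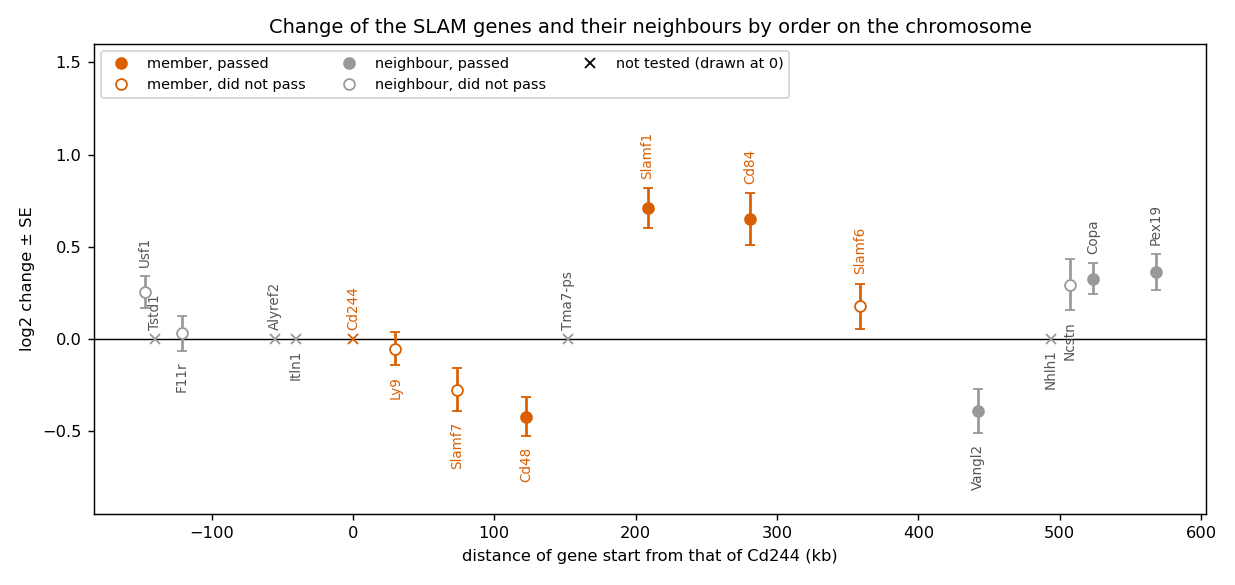
Change (log2 ± SE, vertical axis) on the brightest probe set of each gene, by distance of its start from that of Cd244 in kb (horizontal axis), for the 7 SLAM genes (orange) and 11 neighbours (grey), with crosses at 0 for genes not tested. Cd48 at -0.42 is followed along the chromosome by Slamf1 at 0.71 and Cd84 at 0.65.

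Promoters of the 3 chromosome 1 genes that passed are shown because these neighbours changed in opposite directions, Slamf1 and Cd84 upwards and Cd48 downwards. Each is the 250 bases before the transcript start in RefSeq (GRCm38.p6), 5′ to 3′, with matches to the motifs named below in capitals. RefSeq's promoter table held 6 of the 9 genes, not Ly9, Sh2d1a or Cd2.
Slamf1 (chr1:171766882-171767131, plus strand): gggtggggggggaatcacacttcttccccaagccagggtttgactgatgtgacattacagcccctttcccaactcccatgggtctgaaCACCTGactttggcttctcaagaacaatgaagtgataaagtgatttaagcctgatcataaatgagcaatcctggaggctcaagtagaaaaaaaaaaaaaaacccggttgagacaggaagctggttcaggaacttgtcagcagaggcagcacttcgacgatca
Cd84 (chr1:171839447-171839696, plus strand): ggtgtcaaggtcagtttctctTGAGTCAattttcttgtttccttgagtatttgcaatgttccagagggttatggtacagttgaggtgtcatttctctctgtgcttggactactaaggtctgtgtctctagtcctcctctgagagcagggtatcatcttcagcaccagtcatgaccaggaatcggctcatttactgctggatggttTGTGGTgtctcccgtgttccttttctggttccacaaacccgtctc
Cd48 (chr1:171681742-171681991, plus strand): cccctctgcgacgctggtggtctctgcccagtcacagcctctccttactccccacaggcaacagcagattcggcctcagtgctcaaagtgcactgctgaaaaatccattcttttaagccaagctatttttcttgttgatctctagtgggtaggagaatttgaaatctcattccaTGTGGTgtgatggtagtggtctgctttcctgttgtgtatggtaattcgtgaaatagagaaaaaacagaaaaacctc

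Motifs were searched on both strands, as letters alone. The AP-1 letters were TGANTCA and the RUNX letters TGTGGT. The ETS letters were GGAAGT, those of the E-box CAGGTG and those of GATA factors AGATAA. The MEF2 consensus, of the factors that class IIa deacetylases bind, was also searched. No motif overlapped another in these windows. The Slamf1 promoter held 1 E-box match, 162 bases before the start. The Cd84 promoter held an AP-1 match at 229 and a RUNX match at 45 bases before the start, and the Cd48 promoter a RUNX match at 76. Over 32851 promoters of the same length, 6.75% held the AP-1 letters, 14% RUNX, 19.7% ETS, 17.2% E-box, 9.99% GATA and 2.92% MEF2. The RUNX letters thus stood in a promoter of a gene that rose and in that of a gene that fell.

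Genes that act with these receptors were listed from knowledge of the pathway, 26 in all, and 22 had a probe set of their own. Earlier results of these data were known when the list was made, so its counts are descriptive only. The 4 genes without one, among them Sh2d1b1, which encodes EAT-2, were not analysed here. Of the 21 past the dim filter, limma called 10 higher and 1 lower, and 10 did not pass, with a median change of 0.27. These genes were read on 1 probe set each, and over all 13194 genes read and adjusted that way 24.6% were higher and 17.5% lower, with a median change of -0.02. In that setting 11 of the 21 partner genes were higher and 1 lower. Without GFP negative 1 and GFP positive 3 together, 6 rose and 0 fell, beside 2765 higher and 1609 lower of all 27022 probe sets. The called partner genes had 13 other probe sets past the filter. Of those, 3 gave the same call, 0 the opposite call and 10 did not pass. The related receptor genes Slamf9 and Slamf8 were low, Slamf9 with group means of 1.94 (GFP negative) and 1.92 (GFP positive; change -0.01, limma adjusted p = 0.92) and Slamf8 under the filter.

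Some partner genes encode proteins that bind the CD2 tail or are linked to CD2 by such a protein. Pstpip1, whose product links CD2 to the actin regulator WASP, read 7.33, 7.17 and 7.29 in GFP negative samples. In GFP positive samples it read 7.92, 8.07 and 7.88. This was a rise of 0.69 ± 0.09 (SE; limma adjusted p = 0.0013), with no overlap. Was, the WASP gene, rose by 0.68 ± 0.10 (limma adjusted p = 0.0019), and Cd2bp2, whose product binds proline-rich CD2 sequences, by 0.53 ± 0.09 (limma adjusted p = 0.0039). The Cd2bp2 call rests on its brightest probe set, as its other 2 changed by 0.02 and 0.07. The rise of these partners stood beside the fall of Cd2 itself.

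Among genes that act downstream of SLAM receptors and SAP, Inpp5d, encoding the inhibitory lipid phosphatase SHIP-1, rose from 6.85, 6.95 and 7.05 to 7.53, 7.68 and 7.61 (0.66 ± 0.09, limma adjusted p = 0.0017). A second Inpp5d probe set changed by 0.24 and did not pass. Bcl10, an adaptor of NF-kB signalling, rose by 0.65 ± 0.08 (limma adjusted p = 0.0010) and passed on 2 of 3 other probe sets. Lat, the membrane scaffold of T cell receptor signalling, rose by 0.56 ± 0.10 (limma adjusted p = 0.0041). Prkcq, encoding protein kinase C theta, fell by 0.25 ± 0.08 (limma adjusted p = 0.043). That call was lost whichever of the 6 arrays was left out (changes from -0.26 to -0.22), with the replicate number as a block (limma adjusted p = 0.067) and without the dim filter (limma adjusted p = 0.061).

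Fyn, encoding the kinase that SAP recruits, did not pass, with 7.41, 7.03 and 7.37 in GFP negative and 7.41, 7.31 and 7.71 in GFP positive samples (change 0.20, 95% interval -0.13 to 0.54). Ptpn6, encoding the phosphatase SHP-1, changed by 0.02 (-0.21 to 0.24; limma adjusted p = 0.91).

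**Figure D4:**
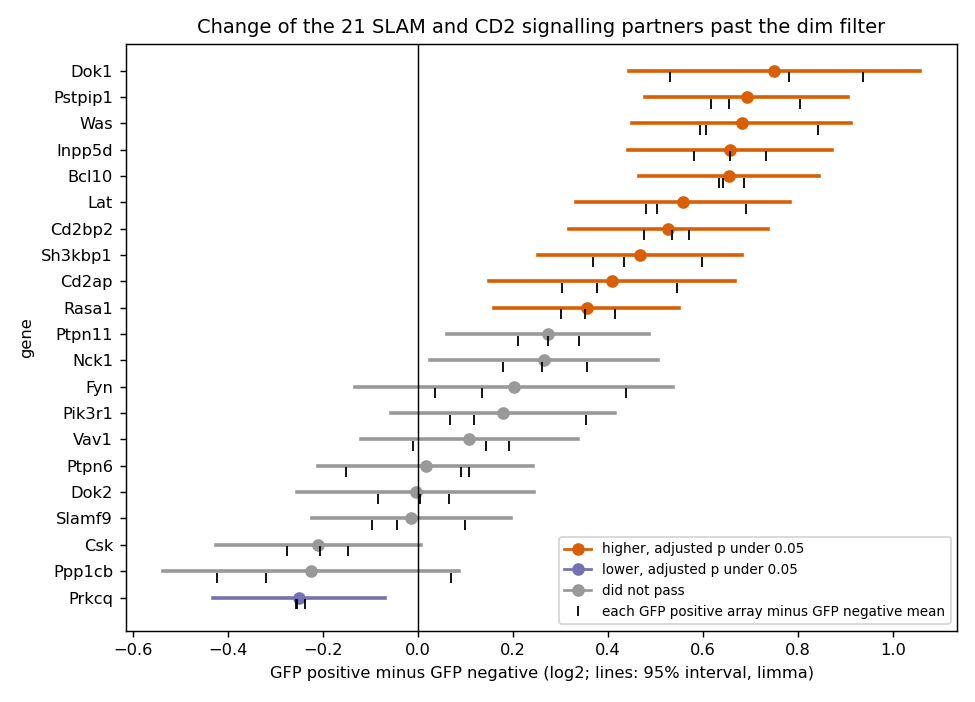
Change of the 21 partner genes past the dim filter (rows), as log2 GFP positive minus GFP negative with the 95% interval from limma (lines), and each GFP positive array minus the GFP negative mean (ticks). The 10 genes that rose include Pstpip1 at 0.69, Was at 0.68, Inpp5d at 0.66 and Bcl10 at 0.65, and Prkcq at -0.25 is the 1 that fell.

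For each member that passed, the gene with the most similar pattern was taken as the one with the smallest root mean square difference over the 6 arrays, after each probe set was centred on its own mean. For Slamf1 it was Triobp (0.041 log2 units; change 0.67) and for Cd84 Pcmtd1 (0.049; change 0.57). For Cd2 it was Tmem238 (0.036; change -1.04) and for Cd48 Ccdc106 (0.032; change -0.39). For Sh2d1a the nearest, Igf1r, differed by 0.21 (change 1.21) and was further away than those of the other 4 members. Ccdc106, Pcmtd1 and Igf1r were dim, with GFP negative means of 2.34, 2.72 and 2.34, against 5.49 for Triobp and 6.42 for Tmem238.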

How the data were processed

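Total RNA of 6 sorted samples was labelled with biotin and read on 6 Affymetrix mouse arrays, per the labels' protocols. The deposited values are log2 signals, a unit read from their range. Affymetrix Expression Console is the tool named in the submitters' processing notes. The sources used here do not give how probes were summarised, corrected and normalized. Values were used as deposited.

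Probe sets under the 40th percentile of mean signal and 64 controls were left out. The rest were compared with limma 3.58.1 in R 4.3.3 (lmFit, then eBayes, with 1 term for group, two-sided, Benjamini-Hochberg over 27022 probe sets). Partner genes and markers were read on each gene's brightest probe set by mean. Members, lists and tests were chosen with earlier results of these data known. Named partners are the 6 with the lowest p in each direction among those that passed, and Sh2d1b1, Fyn, Inpp5d, Ptpn6, Slamf8 and Slamf9. On simulated data with 200 of 27022 probe sets changed, 31% of changes of 0.5 and 94% of changes of 1 (log2) were recovered, and 3.85% of calls were false. In the real data 32.5% of probe sets passed, a far larger share than was changed in the simulation. The simulated rates therefore need not hold for the real comparison. The number of arrays limits the precision. Alternatives covered scaling, the added constant, filters, the variance prior, the replicate block, the choice of probe set and left-out arrays.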

Additional observations from a re-analysis of the deposited data

How the results depend on the processing

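Of the member probe sets as reported, 5 were higher and 2 lower. With 32 added in linear units 3 were higher, with 1 probe set a gene 3, and without both GFP negative 1 and GFP positive 3 (a pair set apart by control signals) 2 were higher and 1 lower. Leaving out 1 array at a time gave 2 to 4 higher and 1 to 2 lower. Over all probe sets, 5218 were higher and 3568 lower, with 3248 and 2309 for 1 probe set a gene. The counts were 2765 and 1609 without that pair, 4994 and 3125 with 32 added, and 6263 lower after median centring. With 1 array left out, 3886 to 5551 of all probe sets were higher and 2383 to 3967 lower. Partner genes called higher were 10, and 6 without that pair; this list was added to the alternatives after seeing the data. Partner genes called lower by limma were 1, 2 after median centring, and 0 with the replicate block (1 at an unadjusted p under 0.05), without the dim filter (1) and without that pair (0), and 0 to 1 with 1 array left out. Ly9 changed by 0.00345 without that pair. Ptpn6 changed by -0.00318 after quantile normalization, -0.10 after median centring, -0.026 without that pair and -0.0298 to 0.10 with 1 array left out, and Slamf9 by 0.023 after quantile normalization and -0.070 to 0.028 with 1 array left out. The cause was not tested. The call of Cd84 ended without that pair (0.63, limma adjusted p = 0.081).

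The groups share replicate numbers 1 to 3. Deviations from the group means correlated by 0.30, 0.24 and 0.08 between same-numbered samples over all probe sets tested, and by 0.47, 0.35 and 0.25 over 1 probe set a gene, each sample best with its own number, which is a hint from the data and not stated in the labels. With the replicate number as a block, 5179 probe sets were higher and 3487 lower, and 5 member probe sets were higher and 2 lower, with no member call changed. Changes at signals near background are limited by the background treatment, and 3 of the 15 member probe sets lay there.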
